A study of Mus musculus with 9 samples.

Results

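Th1 cells were set against Th17 cells across all measured genes, with most attention to gene classes outside the usual T helper lists. The comparison used 6 of the 9 RNA sequencing libraries of the study, 3 labelled Th1 and 3 labelled Th17. The other 3, from Th17 cultures moved to the Th1 condition at a second activation, entered the model fit for their spread alone. Of 22017 gene symbols, 10538 had at least 1 FPKM (fragments scaled to transcript length and to the number of mapped fragments) in at least 3 of the 9 libraries and were tested.

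Both groups grew from T cells of wild-type C57BL/6 spleens, which the series text calls naive. Antibodies to CD3 (5 ug/mL) and CD28 (1 ug/mL) activated them for 3 days. The units of these antibodies follow the sample labels, since the series text gives mg/mL. IL-2 at 100 U/mL was present from day 5, both antibodies were given again at 0.05 ug/mL on day 7. The RNA came from day 10. For Th1 cells the medium contained 10 ng/mL of IL-12 and a block of IL-4. The Th17 condition held TGF-beta at 1 ng/mL, IL-6 at 20 ng/mL and IL-1beta at 10 ng/mL, with blocks of interferon-gamma, IL-12 and IL-4. Each group kept its condition after day 7, so a difference between fates cannot be told apart from a difference between media. Mouse age and sex, and any pooling of animals, were not stated in the labels.

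Th1 cells are helper T cells that act through interferon-gamma, which turns on guanylate-binding proteins, antigen-presentation genes and other defenses in the cells that sense it. Th17 cells act through IL-17 and arise where TGF-beta meets an inflammatory cytokine, and TGF-beta itself controls adhesion, migration and tissue residence. Activated T cells of either kind also remodel sugar and lipid metabolism, secretion and surface glycans, and these broader programs are the main subject below.

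The genes of the defining cytokines followed the labels. Ifng, the Th1 cytokine, was at 1005, 2013 and 1137 FPKM in the Th1 libraries and at 19.9, 14.2 and 40.7 FPKM in the Th17 libraries. Il17a, the Th17 cytokine gene, was listed at 0 in every Th1 library and at 6.16, 2.99 and 4.22 FPKM in the Th17 libraries. The Th17 program as a list did not. Of its 18 tested genes, 7 were higher in Th1 and 8 lower (median -0.11, and 0.44 without replicate 3), and its 22 genes in the table summed to 525.6 to 628.5 FPKM in Th1 and 340.3 to 422.0 FPKM in Th17 libraries. The highest of them, the chemokine receptor gene Cxcr6, was at 342.8, 289.7 and 387.9 against 125.2, 103.7 and 175.0 FPKM. Its difference was about as large as that between the sums, so the higher Th1 sums came mainly from Cxcr6. The factor gene Maf was at 12.9, 7.6 and 7.14 against 28.7, 28.9 and 24.6 FPKM. Il23r, a receptor gene of Th17 cells, was too low to test and ran against the labels, at 1.35, 0.22 and 0.984 FPKM in Th1 and 0.319, 0.14 and 0.224 FPKM in Th17 libraries.

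Some libraries stood apart. Cd8a, which encodes part of the CD8 co-receptor, was at 117.1 FPKM in Th1 replicate 3 and at 140.6 FPKM in Th17 replicate 3, against 15.3 to 54.9 FPKM in the other 4 libraries. Cd4 was at 57.1 and 52.9 FPKM in these 2 libraries, below Cd8a in each. Over the 1478 genes called higher in Th1, Th17 replicate 3 was the Th17 library nearest to Th1 in 64.6%, and Th1 replicate 2 the Th1 library nearest to Th17 in 60.6%. Over the 3048 genes called lower, those shares were 57.2% and 49%. The part of CD8 T cells and of these libraries in the results was not tested, but class counts without replicate 3 of each group are given where they move by more than 1.5 times. In that fit 11.2% of all genes tested were higher and 18.7% lower. Markers of other cells were summed per library. Of 15 B cell markers, 14 were in the table and summed to 1.60 to 3.37 FPKM in Th1 and 3.65 to 7.20 FPKM in Th17 libraries. The 13 NK cell markers summed to 1809 to 3196 against 236.3 to 971.8 FPKM, most of it from Gzma, which T cells also express, at 1779, 1795 and 3152 against 181.9, 197.1 and 884.8 FPKM. Of the 10 NK cell markers tested, 2 were higher and 4 lower. Gamma-delta T and NKT markers, 6 in the table, summed to 3.39 to 7.17 against 18.3 to 20.4 FPKM, and all 4 that were tested were lower. The 9 CD8 T cell markers summed to 99.9 to 320.4 against 205.2 to 396.2 FPKM. The 13 erythroid and platelet markers summed to at most 1.54 FPKM in any library, and the 14 neutrophil markers to 3.22 to 5.85 against 0.198 to 0.847 FPKM. The 17 macrophage markers summed to 93.0 to 128.7 against 22.9 to 66.6 FPKM, with 6 of them at 0 in all 6 libraries and Lyz2 at most 0.428 FPKM. The part of these cells in the results was not tested. Whether replicates were separate cultures or animals is not in the labels, and p-values describe only how these samples spread, which can be technical. In such bulk samples, fewer cells of a kind and less RNA per cell cannot be told apart.

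In all, Th1 cells had 1478 genes (14.0% of those tested) at a higher level than Th17 cells and 3048 (28.9%) at a lower level, at an adjusted p under 0.05 (limma, Benjamini-Hochberg). The genes that were higher differed by more. Of the higher genes, 35.8% differed by at least 2-fold on the log2(FPKM + 1) scale, against 15.4% of the lower genes, so 529 genes (5.02% of those tested) were at least 2-fold higher and 469 (4.45%) at least 2-fold lower. At least 8-fold differences numbered 45 and 29. The median size of a called log2 difference was 0.78 among higher and 0.57 among lower genes. The 3 Th1 and 3 Th17 libraries did not overlap for 5570 genes (52.9%). Among called genes this held for 1433 of the 1478 higher and 3002 of the 3048 lower. Separate groups, where given below, therefore add little to a call.

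**Figure D1:**
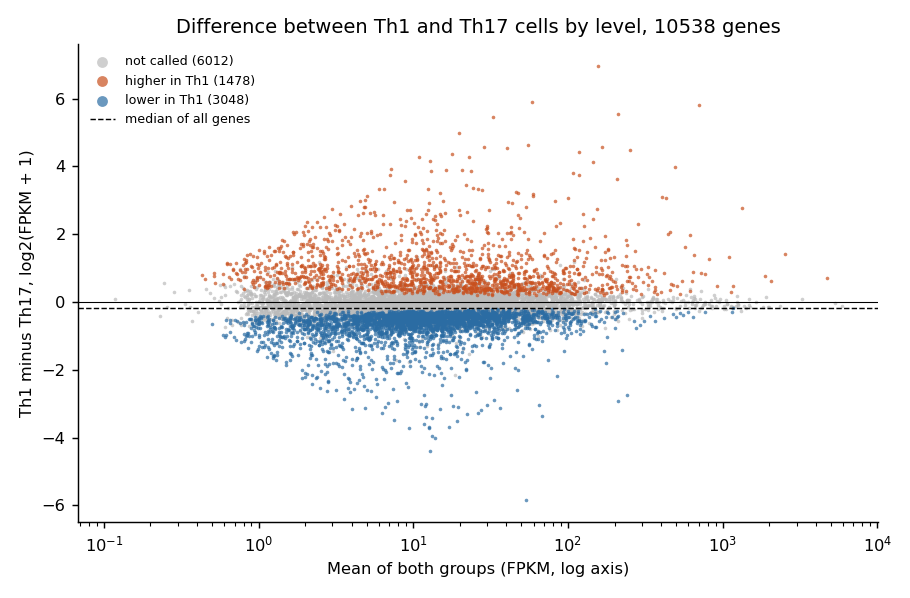
Each point is 1 of 10538 tested genes, with its mean over both groups in FPKM (log axis) against the log2(FPKM + 1) difference, Th1 minus Th17. Colors mark the genes called higher (1478) or lower (3048), the dashed line marks the median of all genes at -0.17, and the higher calls reach farther from 0 than most lower calls.

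Direction depended on how abundant a gene was. Of 257 genes with a mean of 200 FPKM or more, 75 were higher and 26 lower. Of 3425 genes between 2 and 10 FPKM, 412 were higher and 1156 lower. The median gene stood at -0.17 log2 units, so that a typical transcript was slightly less abundant in Th1 cells per unit of library. With libraries rescaled by their median ratio, the median gene stood at -0.02, and 2046 genes (19.4%) were higher and 1759 (16.7%) lower. Rescaling left the contrast between the first 2 of these levels in place, with 100 and 11 of the 257 most abundant genes and 520 and 728 of those between 2 and 10 FPKM. Under 2 FPKM it gave 188 and 187. Class medians are therefore read against -0.17, and class counts against 14.0% higher and 28.9% lower. Counts after the median-ratio rescaling follow where the direction of a class is close, and are read against 19.4% and 16.7%.

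The largest differences outside the T helper lists belonged to secreted and surface proteins. Csf1 (chromosome 3, 107741048 to 107760469), a growth factor for macrophages, was at 415.9, 113.2 and 399.7 FPKM in Th1 and at 0.603, 1.80 and 1.13 FPKM in Th17 libraries (log2 difference 6.97 ± 0.60 SE, limma adjusted p = 8.37e-05). Th1 replicate 2 was the lowest Th1 library and still lay far above every Th17 library. Serpine2 (chromosome 1, 79794197 to 79861180), a secreted inhibitor of thrombin and other serine proteases, was at 109.5, 89.1 and 121.1 against 2.26, 2.60 and 6.04 FPKM. Esm1, which encodes a proteoglycan better known from blood vessel cells, was at 56.0, 69.2 and 105.7 against 1.08, 1.02 and 7.25 FPKM. Sulf2, an extracellular enzyme that removes sulfate from heparan chains, was at 46.6, 24 and 34.6 FPKM against 0.568 to 0.765 FPKM. None of these groups overlapped, which was a condition for being named among the largest differences. Lilr4b and Lilrb4a, neighboring genes for inhibitory leukocyte receptors on chromosome 10, were at 203.8 to 248.4 and 267.2 to 285.1 FPKM in Th1 against 6.96 to 15.8 and 10.7 to 23.9 FPKM in Th17 libraries. They are near-identical copies, and how reads shared between copies were assigned is not given in the sources used here, so the split between them is uncertain. Tnfsf4, which encodes the costimulatory ligand OX40L, was at 47.2, 37.0 and 50.1 against 1.92, 2.40 and 2.12 FPKM.

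Both genes of ATP-gated channels in the leading set were higher in Th1. P2rx7 (chromosome 5, 122643911 to 122691432), a channel that opens at high extracellular ATP, was at 55.7, 36.3 and 41.0 against 1.54, 1.34 and 0.979 FPKM (log2 difference 4.29 ± 0.20 SE, limma adjusted p = 4.67e-06). P2rx3, a relative known from sensory neurons, was at 34.3, 25.9 and 58.4 against 0.0509, 0.366 and 0.250 FPKM. The groups did not overlap in either gene, which the same condition required. Adora2a, the receptor for adenosine that ATP is broken down to, was at 30.6, 13.3 and 39.4 against 1.50, 2.11 and 1.94 FPKM. Nt5e, which encodes the surface enzyme CD73 that makes adenosine from AMP, went the other way, at 6.14, 5.53 and 6.66 against 49.8, 52.5 and 31.1 FPKM. The adenosine receptor gene was therefore high in Th1 libraries and the adenosine-forming enzyme gene high in Th17 libraries, with no overlap for either.

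Among the genes lower in Th1, Ncmap (chromosome 4, 135369576 to 135398227), a small membrane protein named from Schwann cells, was at 0.0812, 0.0731 and 0 against 30.7, 38.3 and 7.65 FPKM. Spsb1, an adaptor of a ubiquitin ligase, was at 0.497, 1.45 and 0.197 against 30.9, 34.3 and 15.8 FPKM. Rflnb, a regulator of filamin and so of the actin network, was at 0.636, 0.423 and 0.783 against 29.8, 35.0 and 12.5 FPKM. Th17 replicate 3 was the lowest Th17 library in all 3 genes and stood above every Th1 library. Ifngr2 (chromosome 16, 91547072 to 91565623), the signaling chain of the interferon-gamma receptor, was at 0.244, 0.750 and 0.232 against 16.6, 16.2 and 11.3 FPKM (log2 difference -3.48 ± 0.18 SE, limma adjusted p = 7.03e-06). Tgfb3, a member of the TGF-beta family, was at 0.273, 0.141 and 0.195 against 9.65, 11.3 and 7.75 FPKM. Aqp3, a channel for water and glycerol, was at 3.02, 0.562 and 3.25 against 40.3, 48.0 and 19 FPKM. The evenest of the leading lower genes across Th17 libraries was Acpp, an acid phosphatase, at 20.8, 24 and 21.4 FPKM against 1.44, 2.38 and 1.91 FPKM in Th1.

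**Figure D2:**
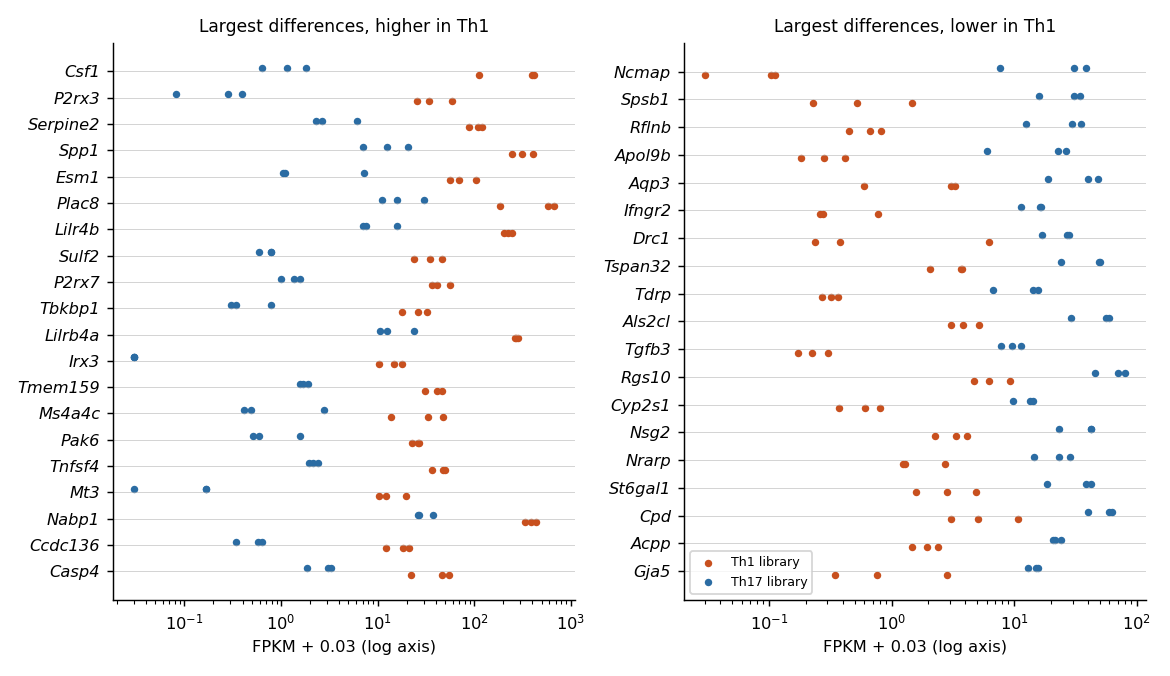
FPKM of each Th1 and Th17 library (log axis, 0.03 added so that zeros can be drawn) for genes from the 20 largest differences in each direction outside the T helper lists, among those whose groups did not overlap. Genes such as Csf1 and Irx3 on the left and Ncmap on the right have libraries of the 2 groups far apart.

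A few genes were listed at 0 in every library of 1 group and at 2 FPKM or more in all 3 of the other. In Th17 these were Irx3, a homeobox factor (17.9, 10.3 and 14.8 FPKM in Th1), Mecom, a zinc finger factor of blood stem cells (4.32, 3.37 and 4.65 FPKM), and Ffar2, a receptor for short-chain fatty acids (16.1, 2.59 and 4.99 FPKM). In Th1 they were Il17a, Emid1 (3.70, 4.98 and 2.85 FPKM in Th17) and Pyroxd2 (6.60, 5.62 and 2.81 FPKM). No fold is given for these 6 genes, since a listed 0 has no known depth behind it.

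Classes of genes were then read by how many tested members were called. Nuclear regulators made up the clearest block on the lower side. Of 465 zinc finger genes named Zfp or Zbtb, 327 were tested, of which 15 were higher and 180 lower, with a median log2 difference of -0.39. After the median-ratio rescaling 18 were higher and 105 lower, and without replicate 3, 8 of 314 were higher and 131 lower. As deposited, 4 of the 327 were at least 2-fold higher and 10 at least 2-fold lower. Zbtb18, a repressor known from neurons, was at 11.6, 16.0 and 10.2 against 33.9, 27.0 and 28.8 FPKM (log2 difference -1.20 ± 0.17 SE, limma adjusted p = 0.000929), and Zfp12 was at 2.62, 2.07 and 2.60 against 8.10, 7.58 and 5.41 FPKM. Both had separate groups, with every Th17 library the higher. The exceptions on the higher side included Zbtb32, a repressor of activated lymphocytes, at 35.6, 59.3 and 52.2 against 6.80, 6.91 and 19.7 FPKM, and Zfp683, which encodes the tissue-residency factor Hobit, at 14.9, 13.5 and 13.3 against 4.12, 4.35 and 7.50 FPKM. Zinc finger genes share long similar stretches, and the assignment of shared reads is unknown here too.

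Of 89 chromatin modifier genes tested, 2 were higher and 42 lower (median -0.29). The counts were 6 and 19 after the median-ratio rescaling, and 1 and 23 without replicate 3. Tet3, which oxidizes methylated cytosine, was at 11.5, 9.71 and 11.3 against 25.2, 26.6 and 21.8 FPKM (log2 difference -1.11 ± 0.10 SE, limma adjusted p = 0.000122). Dnmt3b, which lays down cytosine methylation, was at 1.29, 1.35 and 1.25 against 3.77, 5.06 and 4.90 FPKM. Cbx7, a reader within Polycomb repressive complexes, was at 12.9, 7.19 and 8.32 against 30.9, 31.8 and 21.6 FPKM. Kdm6b, which removes the mark that Polycomb lays down, was also lower at 2.51, 2.85 and 1.90 against 6.08, 6.41 and 6.18 FPKM. The higher member whose call held in every alternative was Eed, a core Polycomb subunit, at 57.4, 44.7 and 50.9 against 30.7, 32.2 and 37.2 FPKM.

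**Figure D3:**
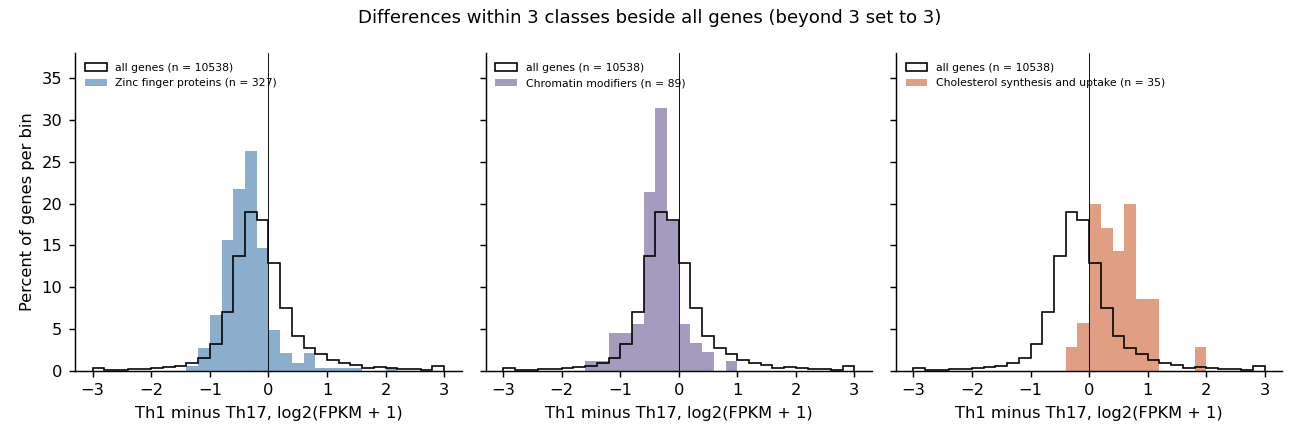
Percent of genes per bin of log2(FPKM + 1) difference, Th1 minus Th17, for 327 zinc finger, 89 chromatin modifier and 35 cholesterol genes (filled) beside all 10538 genes (outline). Values beyond 3 in either direction are drawn at 3, and the first 2 classes sit to the left of all genes (medians -0.39 and -0.29) while the cholesterol genes sit to the right (median 0.45).

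RNA decay and RNA-binding regulators leaned the same way, with 3 of 47 higher and 20 lower (4 and 14 after the median-ratio rescaling). Dcp1b, a cofactor of mRNA decapping, was at 2.93, 2.08 and 2.27 against 4.57, 6.24 and 3.90 FPKM. The large exception was Igf2bp3, an RNA-binding protein of fetal tissue, at 10.2, 9.70 and 9.49 against 0.520, 0.563 and 1.27 FPKM (log2 difference 2.62 ± 0.17 SE, limma adjusted p = 1.78e-05). Of 42 ubiquitin-specific peptidases, 2 (4.76%) were higher and 14 (33.3%) lower, against 14.0% and 28.9% of all genes. After the rescaling 4 (9.52%) were higher and 11 (26.2%) lower, against 19.4% and 16.7% of all genes. Usp28 was lowest in Th1 relative to Th17, at 2.62, 2.85 and 2.49 against 15.2, 16.5 and 10.4 FPKM, and Usp18, an interferon-induced member that removes the modifier ISG15, was higher at 38.1, 19.4 and 47.3 against 3.87, 2.50 and 7.17 FPKM.

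Genes of cell division were rarely called higher. Of 66 mitosis genes 0 were higher and 29 (43.9%) lower, above the 28.9% of all genes. The lower share was 19.7% against 16.7% of all genes after the median-ratio rescaling and 18.2% against 18.7% without replicate 3, so it was near that of all genes in both. Of 55 DNA replication genes 1 was higher and 11 (20.0%) lower, under the share of all genes, as were the 3 after the rescaling and the 5 without replicate 3. Racgap1, needed for the last step of cell division, was at 67.7, 62.7 and 56.9 against 119.1, 117.7 and 114.7 FPKM (log2 difference -0.90 ± 0.11 SE, limma adjusted p = 0.000419). Cdc25b, a phosphatase that starts mitosis, was at 47.8, 30.1 and 40.3 against 83.8, 86.1 and 73.9 FPKM, and Kif23, the motor partner of Racgap1, at 31.0, 22.6 and 23.1 against 44.1, 41.9 and 44.2 FPKM. Pcna, the sliding clamp of DNA polymerase, was the higher member, at 439.3, 389.5 and 424.9 against 252.4, 233.4 and 266.5 FPKM. Pcna is also a target of p53.

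Some other known p53 targets were higher, among them Cdkn1a, Pmaip1, Plk2 and Phlda3. Gadd45a, also a p53 target, was lower. Cdkn1a, which encodes the cell cycle inhibitor p21 (chromosome 17, 29090976 to 29100727), was at 215.5, 342.1 and 253.1 against 32.5, 33.9 and 52.7 FPKM (log2 difference 2.74 ± 0.21 SE, limma adjusted p = 4.46e-05). Gadd45g, a stress-response gene, was at 224.7, 263.3 and 240.5 against 34.6, 34.5 and 68.7 FPKM, and Pmaip1, a death-promoting BCL-2 relative, was at 54.2, 34.3 and 60.7 against 10.3, 10.5 and 11.1 FPKM. Plk2 and Phlda3, both p53 targets, were at 7.78 to 9.37 and 39.6 to 44.2 FPKM against 1.25 to 1.44 and 12.8 to 14.7 FPKM. The whole class of p53 and DNA repair genes split, with 14 of 58 higher (24.1%) and 18 lower (31.0%), against 14.0% and 28.9% of all genes. After the median-ratio rescaling 16 (27.6%) were higher and 10 (17.2%) lower, against 19.4% and 16.7%. Among the lower members of the class were Gadd45a, a damage-response gene, with a log2 difference of -0.85, and the checkpoint kinase gene Atm, at -0.73. Cdkn2a, which encodes the inhibitors p16 and ARF, was at 69.1, 99.4 and 91.8 against 18.9, 20.7 and 31.2 FPKM.

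**Figure D4:**
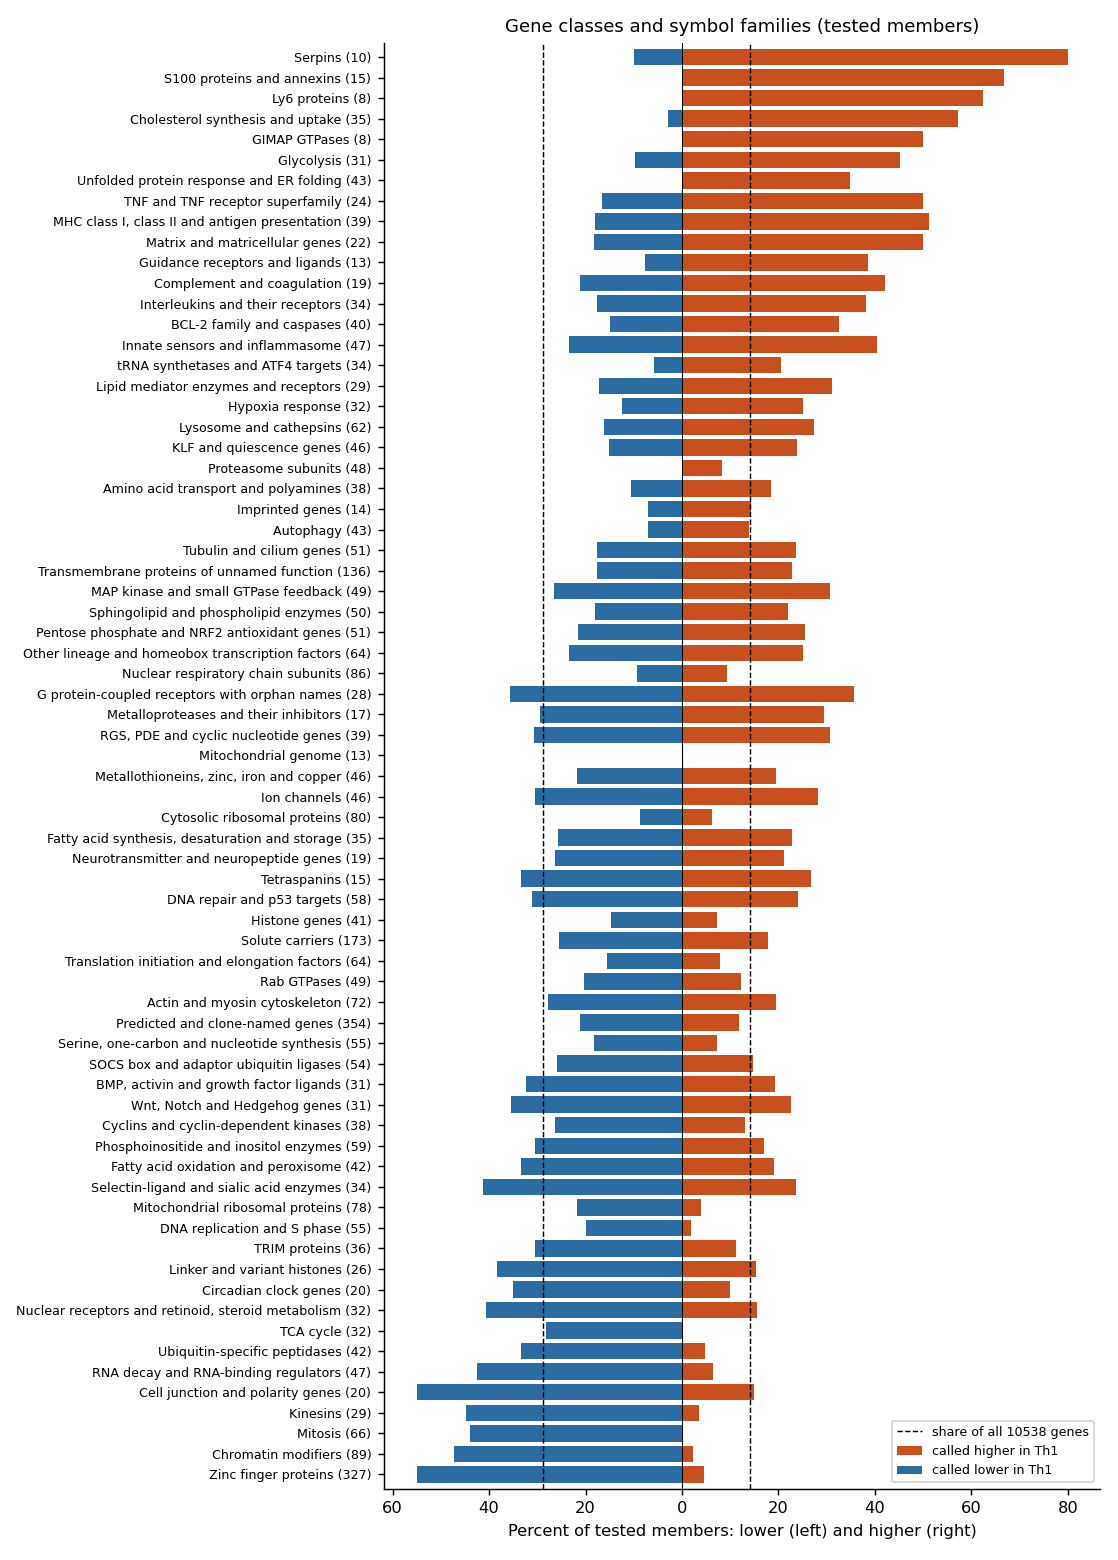
For gene classes and symbol families with at least 8 tested members, bars give the percent of tested members called higher (right) or lower (left) in Th1, with the number tested in parentheses. Dashed lines mark the shares over all 10538 genes (14.0% higher and 28.9% lower), and classes are ordered by the difference of the 2 shares, from serpins at the top to zinc finger proteins at the bottom.

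Glycolysis was among the classes on the higher side. Of 31 tested genes 14 were higher and 3 lower (median 0.39), against 17 and 3 after the median-ratio rescaling. The glucose transporter gene Slc2a1 was at 40.0, 52.4 and 40.0 against 14.6, 15.4 and 20.6 FPKM (log2 difference 1.34 ± 0.17 SE, limma adjusted p = 0.000469). Aldoa, which splits the sugar phosphate, was at 901.5, 1023 and 886.7 against 282.5, 321.9 and 493.0 FPKM, and Slc16a3, which exports lactate, was at 21.6, 18.0 and 23.8 against 6.95, 5.29 and 9.07 FPKM. Th17 replicate 3 was the highest Th17 library in all 3 genes, and the groups stayed apart. Some steps were not called. Eno1 was at 468.1, 874.4 and 476.5 against 521.2, 534.9 and 691.7 FPKM and Ldha at 594.7, 923.5 and 587.6 against 460.5, 489.0 and 632.8 FPKM, both with overlapping groups (limma adjusted p = 0.987 and 0.111). Gapdh stood at 14.3 to 70.7 FPKM, far under its neighbors in the pathway. It has many processed copies in the genome, so this level is uncertain. Pdk1, a kinase that keeps pyruvate out of the mitochondrion, was lower in Th1, at 8.09, 6.78 and 6.61 against 24.6, 23.1 and 17.9 FPKM, and so was Bpgm at 4.71, 4.38 and 3.35 against 18.1, 17.0 and 7.50 FPKM. Glycolysis genes took 1.14% ± 0.202 of the summed FPKM in Th1 and 0.744% ± 0.137 in Th17 libraries (SD, n = 3 in each group, two-sided exact permutation p = 0.1, the smallest that 3 against 3 can give).

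Genes of mitochondrial metabolism showed no such lean. Of 32 TCA cycle genes 0 were higher and 9 lower (3 and 4 after the median-ratio rescaling). Idh2, the mitochondrial isocitrate dehydrogenase, had the largest difference, at 6.28, 6.99 and 4.52 against 19.1, 20.9 and 15.0 FPKM (log2 difference -1.48 ± 0.17 SE, limma adjusted p = 0.000321). Nuclear genes of the respiratory chain had 8 of 86 higher and 8 lower as deposited but 27 and 2 after the median-ratio rescaling and 5 and 2 without replicate 3. Cytosolic ribosomal proteins had 5 of 80 higher and 7 lower as deposited, 14 and 1 after the median-ratio rescaling, 1 and 9 without replicate 3, and 2 and 37 with quantile normalization. No direction can therefore be given for these 2 classes. Of the 13 genes of the mitochondrial genome 0 were called as deposited, 1 was higher after the rescaling and 2 were lower without replicate 3.

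Cholesterol genes were the metabolic class with the largest share of higher members. Of 35 tested, 20 were higher and 1 lower (median 0.45), against 22 and 0 after the median-ratio rescaling. Msmo1, an enzyme late in synthesis, was at 40.3, 36.0 and 45.5 against 18.3, 16.5 and 24.5 FPKM (log2 difference 1.02 ± 0.17 SE, limma adjusted p = 0.00197), and Mvd, which completes the isoprenoid building block, was at 34.8, 28.3 and 39.1 against 15.3, 15.2 and 25.1 FPKM. Hmgcs1, an early step, was at 79.7, 61.2 and 93.3 against 33.9, 31.1 and 60.6 FPKM. Its call (limma adjusted p = 0.0211) was lost without Th1 replicate 1 or 3 (adjusted p = 0.0574 and 0.0778) and without Th17 replicate 1 or 2 (0.0798 and 0.081). In all 3 genes Th17 replicate 3 was the Th17 library nearest to Th1. The gene of the cholesterol exporter Abca1 was higher as well, at 7.00, 1.82 and 7.33 against 0.443, 0.514 and 0.415 FPKM.

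**Figure D5:**
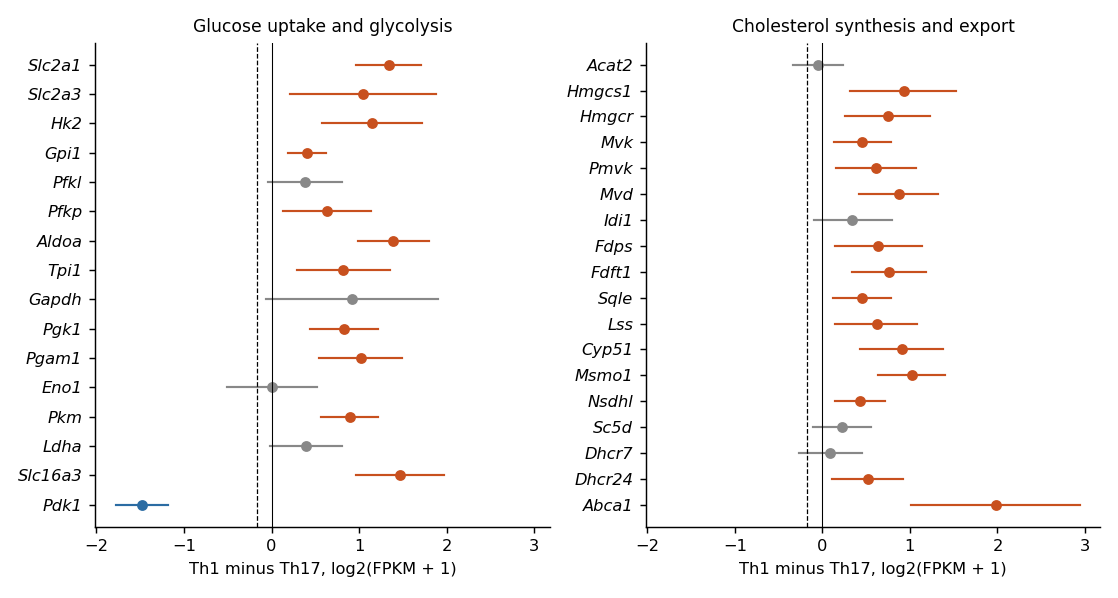
Log2(FPKM + 1) differences, Th1 minus Th17, with 95% confidence intervals from limma, not adjusted for the number of genes, for steps of glucose uptake and glycolysis (left) and of cholesterol synthesis and export (right). Orange marks genes called higher, blue lower and gray not called, and the dashed line marks the median of all genes at -0.17. Most steps lie to the right, Pdk1 lies to the left at -1.48, and Eno1 at 0.01 was not called.

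Other lipid genes differed in both directions. Fatty acid synthesis and storage had 8 of 35 higher (22.9%) and 9 lower (25.7%), against 14.0% and 28.9% of all genes. The counts were 10 and 7 after the median-ratio rescaling, and 10 and 4 of 32 without replicate 3. The storage genes Dgat1, which completes triglyceride synthesis, and Plin2, which coats lipid droplets, were at 94.4, 52.9 and 105.4 and at 20.8, 18.7 and 21.8 FPKM in Th1, against 13.4, 13.6 and 14.3 and 3.88, 3.80 and 4.32 FPKM in Th17. Acss1 and Acss2, which turn acetate into acetyl-CoA, were lower at 1.10 to 4.12 and 2.28 to 5.25 FPKM against 7.76 to 12.8 and 8.84 to 16.5 FPKM. The storage genes and the acetate genes thus differed in opposite directions within 1 list. Fatty acid oxidation and peroxisome genes had 8 of 42 higher and 14 lower, 11 and 9 after the rescaling, and 6 and 9 without replicate 3. Antioxidant and pentose phosphate genes had 13 of 51 higher and 11 lower (17 and 7 after the rescaling). Me1, which makes NADPH from malate, was at 6.01, 13.6 and 6.91 against 0.256, 0.129 and 0.175 FPKM (log2 difference 2.98 ± 0.24 SE, limma adjusted p = 6.57e-05). Hmox1, which degrades heme, was at 19, 38.6 and 15.9 against 2.79, 3.08 and 3.43 FPKM, whereas Ggt1, a surface enzyme that cleaves glutathione, was lower at 1.41, 3.10 and 1.61 against 11.9, 12.7 and 6.82 FPKM.

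The unfolded protein response and protein folding of the endoplasmic reticulum had 15 of 43 genes higher and 0 lower (19 and 0 after the median-ratio rescaling, 12 and 0 without replicate 3). Eif2ak3, which encodes the stress sensor PERK, was at 38.1, 32.1 and 45.3 against 14.6, 14.1 and 17.7 FPKM (log2 difference 1.26 ± 0.21 SE, limma adjusted p = 0.00198). Selenok and Edem1, which act in the disposal of misfolded proteins, were at 39.7 to 49.5 and 84.0 to 97.9 against 20.4 to 24.7 and 51.5 to 64.2 FPKM. Lysosome and cathepsin genes had 17 of 62 higher and 10 lower (23 and 6 after the median-ratio rescaling), and cathepsins split. Ctsd was at 899.5, 806.8 and 1253 against 206.5, 220.3 and 328.6 FPKM, while Ctss, Ctsc and the related protease Lgmn were lower, at 26.8 to 38.0, 25.6 to 33.0 and 1.37 to 1.50 FPKM against 60.9 to 88.9, 48.6 to 78.1 and 5.64 to 15.2 FPKM. All 4 proteases had groups that did not overlap.

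Serpins, a family of protease inhibitors, had the largest share of higher members among symbol families with at least 8 tested genes, 8 of 10 with 1 lower (median 1.31). Besides Serpine2, Serpinb6b was at 38.4, 13.3 and 33.9 against 1.35, 1.67 and 5.30 FPKM, and Serpinb9, which inhibits granzyme B, was at 36.2, 35.4 and 43.0 against 11.5, 11.3 and 24.7 FPKM. Serpini1 was the lower member (log2 difference -1.17). The serpinb genes lie in a cluster of related copies, so their values are uncertain in the same way. Of 15 S100 proteins and annexins, which bind calcium and membranes, 10 were higher and 0 lower (median 0.73), and 10 and 1 without replicate 3. Anxa1, known for damping inflammation, was at 95.3, 47.6 and 111.4 against 7.59, 5.77 and 9.45 FPKM (log2 difference 3.25 ± 0.37 SE, limma adjusted p = 0.000342). Anxa2 and S100a10, which form 1 complex at the membrane, were at 308.4 to 421.2 and 649.2 to 1027 FPKM against 96.6 to 148.0 and 260.1 to 300.3 FPKM. Ly6 surface proteins had 5 of 8 higher and 0 lower, with Ly6a at 1657, 1375 and 1645 against 570.1, 533.9 and 795.4 FPKM. GIMAP GTPases, which support lymphocyte survival, had 4 of 8 higher and 0 lower, with Gimap7 at 91.7, 38.1 and 89.0 against 7.52, 4.69 and 13.2 FPKM.

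Extracellular matrix genes had 11 of 22 higher and 4 lower. Spp1, which encodes osteopontin, was at 248.7, 310.2 and 402.7 against 12.5, 7.01 and 20.9 FPKM. Vcan, a large matrix proteoglycan, was at 4.98, 5.53 and 7.34 FPKM against 0.0219 to 0.0385 FPKM, and Ecm1 was lower at 17.2, 6.31 and 13.3 against 49.9, 55.7 and 25.7 FPKM. The groups did not overlap in any of the 3. Metalloproteases and their inhibitors had 5 of 17 higher and 5 lower, and 3 and 4 of 14 without replicate 3. Adam8, a shedding enzyme of activated leukocytes, was at 217.4, 154.3 and 272.7 against 26.0, 26.2 and 55.2 FPKM. The inhibitor genes Timp3 and Timp2 differed in opposite directions, at 1.67 to 3.89 against 0 to 0.0551 FPKM and at 1.42 to 2.64 against 8.63 to 13.3 FPKM.

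Surface sugars are built by enzymes that also differed. Of 34 selectin-ligand and sialic acid enzymes 8 were higher and 14 lower, 8 and 11 after the median-ratio rescaling, and 8 and 8 of 33 without replicate 3, where the lower lean was gone. St6gal1 (chromosome 16, 23224740 to 23360350), which caps glycans with sialic acid, was at 2.81, 4.87 and 1.54 against 38.3, 42.5 and 18.5 FPKM (log2 difference -3.07 ± 0.34 SE, limma adjusted p = 0.000314). Cmah, which converts one form of sialic acid into another, was at 1.95, 1.70 and 2.55 against 23.7, 30.7 and 9.95 FPKM, and the sialic acid transferase gene St8sia6 was at 0.0627 to 0.154 against 2.21 to 6.21 FPKM. Every Th17 library exceeded every Th1 library in these genes, with Th17 replicate 3 the lowest of its group. The sulfate-adding enzyme gene Chst2 and Galnt3, which starts mucin-type glycans, were the largest on the higher side, at 5.60 to 13.8 and 20.5 to 27.3 FPKM against 0.376 to 0.786 and 3.57 to 9.97 FPKM. Of 20 cell junction and polarity genes, 3 were higher and 11 lower, and 0 and 8 without replicate 3. Gja5, a gap junction channel, was at 0.315, 2.79 and 0.731 against 12.9, 15.5 and 15.1 FPKM, and Tjp1, a tight junction scaffold, was at 0.325, 1.87 and 1.33 against 6.92, 7.38 and 10.2 FPKM. In both, Th1 replicate 2 was the highest Th1 library. Tetraspanins had 4 of 15 higher and 5 lower (4 and 3 after the rescaling, and also without replicate 3), with Cd82 at 162.9 to 201.5 against 68.4 to 90.2 FPKM and Tspan32 at 2.04 to 3.76 against 23.9 to 50.3 FPKM.

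Receptors and ligands of the TNF superfamily had 12 of 24 higher and 4 lower, and 12 and 1 without replicate 3. Beyond Tnfsf4, Tnfrsf8, which encodes CD30, was at 8.98, 26.0 and 11.1 against 1.77, 1.48 and 3.57 FPKM, and Tnfsf14, which encodes the ligand LIGHT, at 11.9, 13.5 and 11 against 2.37, 1.97 and 4.88 FPKM. Tnfrsf13c, a survival receptor known from B cells, was lower at 0.236 to 0.340 against 2.09 to 6.91 FPKM. Among 34 interleukins and interleukin receptors, 13 were higher and 6 lower. Il10, an anti-inflammatory cytokine gene, was at 68.9, 106.1 and 106.8 against 11, 8.73 and 19.1 FPKM (log2 difference 2.81 ± 0.26 SE, limma adjusted p = 0.000108). Il2ra, the high-affinity IL-2 receptor chain, was at 391.9, 557.0 and 462.8 against 83.4, 80.2 and 121.1 FPKM. The libraries of the 2 groups were separate for both.

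Genes for receptors of small molecules and for ion channels held members that differed in each direction. Of all genes 14.0% were higher and 28.9% lower. Lipid mediator enzymes and receptors had 9 of 29 higher (31.0%) and 5 lower (17.2%), and 9 and 3 without replicate 3. Cysltr2, a leukotriene receptor, was at 48.0, 29.9 and 47.9 against 6.28, 5.79 and 9.11 FPKM, and Ptger3, a receptor for prostaglandin E2, was at 19.5, 20.0 and 15.6 against 2.78, 2.68 and 4.09 FPKM. Hpgds, which makes prostaglandin D2, was lower at 0.772 to 0.928 against 4.03 to 6.70 FPKM. Ion channels had 13 of 46 higher and 14 lower (9 and 8 of 41 without replicate 3), with Kcnip2, a potassium channel partner, at 0.999, 0.312 and 0.765 against 10.3, 12 and 4.51 FPKM. Among genes named for neurotransmitters and neuropeptides, 4 of 19 were higher (21.1%) and 5 lower (26.3%), near the shares of all genes. Ramp1 and Vipr1, parts of receptors for the neuropeptides CGRP and VIP, were lower at 3.84 to 4.35 and 2.29 to 5.71 FPKM against 12.4 to 24.4 and 9.93 to 24 FPKM. Nrn1, a membrane-anchored protein first known from neurons, was higher at 22.1, 15.3 and 12.7 against 1.91, 1.45 and 1.63 FPKM. None of these receptors and enzymes overlapped between groups, as was usual for called genes.

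Genes of signaling inside the cell differed in both directions. MAP kinase and small GTPase feedback genes had 15 of 49 higher (30.6%) and 13 lower (26.5%), against 14.0% and 28.9% of all genes. The counts were 20 and 9 after the median-ratio rescaling. Dusp5 and Dusp14, phosphatases of this pathway, were at 64.4 to 75.7 and 6.51 to 9.46 FPKM against 13.3 to 20.6 and 1.15 to 1.69 FPKM. Rasgrp2, an activator of Rap1 and so of integrins, was lower at 11.4, 15.2 and 11.3 against 86.9, 96.4 and 60.9 FPKM (log2 difference -2.58 ± 0.19 SE, limma adjusted p = 4.2e-05). RGS, phosphodiesterase and cyclic nucleotide genes had 12 of 39 higher and 12 lower (30.8% each). Rgs16 was higher (16.3 to 32.5 against 4.88 to 8.28 FPKM) and Rgs10 lower (4.64 to 9.22 against 45.8 to 80.8 FPKM), although both shorten signals of G proteins. Growth factor genes of the BMP and activin kind had 6 of 31 higher (19.4%) and 10 lower (32.3%), near the shares of all genes. Gdf11, a ligand, was at 13.9, 11.9 and 17.5 against 1.78, 1.87 and 2.86 FPKM, and the receptor gene Igf1r was at 0.264 to 0.746 against 3.19 to 6.13 FPKM. Wnt, Notch and Hedgehog genes had 7 of 31 higher (22.6%) and 11 lower (35.5%), with a median of -0.15 beside the -0.17 of all genes. The Wnt target Axin2 was lower at 1.79 to 4.01 against 5.74 to 9.28 FPKM, the ligand gene Wnt10b higher at 4.70 to 9.15 against 0.572 to 1.15 FPKM, and Nrarp, a Notch target, lower at 1.22 to 2.71 against 14.6 to 28.4 FPKM.

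Hormone-sensing and clock genes had medians of -0.15 and -0.11, close to the -0.17 of all genes. Of 32 nuclear receptor, retinoid and steroid genes 5 (15.6%) were higher and 13 (40.6%) lower, against 14.0% and 28.9% of all genes. Rara, a retinoic acid receptor, was at 8.06, 15.1 and 11.3 against 30.4, 31.7 and 29.4 FPKM, and Tsc22d3, a classic glucocorticoid-induced gene, was at 4.70, 1.81 and 5.04 against 21.3, 24.4 and 11 FPKM. Of 20 circadian clock genes 2 (10.0%) were higher and 7 (35.0%) lower, near the shares of all genes. Nr1d2, a repressor in the clock, was at 3.19, 2.59 and 2.28 against 12.2, 11.6 and 8.52 FPKM, and the output factor Dbp was at 2.40, 1.09 and 2.22 against 9.24, 12.6 and 4.63 FPKM. Bhlhe40, which also represses clock genes, was higher at 253.6, 143.0 and 231.7 against 41.3, 38.3 and 49.0 FPKM (log2 difference 2.23 ± 0.24 SE, limma adjusted p = 0.000251). Th17 replicate 3 was the Th17 library nearest to Th1 in all 5 genes.

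Transcription factors of other lineages had 16 of 64 higher (25.0%) and 15 lower (23.4%) as deposited, against 14.0% and 28.9% of all genes. After the median-ratio rescaling 19 were higher and 10 lower. Some members differed by much. Etv5, a factor of the Ets family, was at 15.1, 12.3 and 10.2 against 0.404, 0.260 and 0.319 FPKM (log2 difference 3.34 ± 0.14 SE, limma adjusted p = 4.55e-06). Hopx, a homeodomain protein without DNA binding, was at 179.4, 151.1 and 203.3 against 15.5, 15.1 and 35.6 FPKM, and Mxd1, which opposes Myc, was at 90.8, 43.4 and 99.9 against 8.09, 8.86 and 9.35 FPKM. The related inhibitors Id2 and Id3 stood in opposite directions, Id2 at 345.5, 330.5 and 416.9 against 84.9, 74.3 and 163.1 FPKM and Id3 at 1.98, 4.98 and 1.37 against 11.9, 13.5 and 8.73 FPKM. Each pair of groups was separate.

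Genes that sense danger inside the cell had 19 of 47 higher and 11 lower. The inflammatory caspase genes Casp4 and Casp1 were at 54.6, 22.1 and 47.0 and at 56.3, 39.0 and 52.7 FPKM, against 3.02, 1.84 and 3.23 and 11.1, 9.36 and 13.4 FPKM. Nlrp1a, an inflammasome sensor, was at 9.51, 7.18 and 8.18 FPKM against 0.447 to 0.604 FPKM, and Nlrp1b, its near copy, at 2.76 to 5.48 against 0.564 to 0.716 FPKM. Nlrp6 and the endosomal RNA sensor gene Tlr7 were lower, at 0.0258 to 0.182 and 0.286 to 0.701 FPKM against 1.25 to 2.29 and 1.65 to 2.97 FPKM. Members of the BCL-2 family and caspases had 13 of 40 higher and 6 lower, 17 and 3 after the median-ratio rescaling, and 11 and 2 of 39 without replicate 3. The survival gene Bcl2a1b was at 53.2, 29.9 and 65.4 against 9.97, 8.35 and 11.6 FPKM. Metallothioneins, which bind zinc, included higher members as well. Mt3 was at 10.3, 19.6 and 12.3 against 0, 0.137 and 0.139 FPKM, and Mt1 at 145.0, 205.4 and 175.2 against 48.6, 49.8 and 85.0 FPKM.

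Antigen presentation genes had 20 of 39 higher and 7 lower (25 and 7 after the median-ratio rescaling). Class I genes were among the higher members. Nlrc5, its main activator, was at 108.7, 81.8 and 105.8 against 43.1, 38.4 and 58.8 FPKM (log2 difference 1.07 ± 0.16 SE, limma adjusted p = 0.00129), the nonclassical H2-T22 at 161.4, 103.4 and 157.4 against 63.9, 57.7 and 76.0 FPKM, and Cd80, a costimulatory ligand, at 21.1, 17.7 and 21.1 against 2.81, 2.30 and 3.37 FPKM. Among class II genes, H2-Oa was lower, with a log2 difference of -0.94, and Cd74 and H2-DMb2 were not called (0.69 and -0.39). Further lower members were H2-Ob, a chain of the class II chaperone, at 0.184, 0.0431 and 0.171 against 6.92, 8.11 and 3.50 FPKM, H2-Aa at 0.0956 to 0.239 against 1.53 to 2.23 FPKM, and H2-DMa at 4.82 to 5.75 against 11.4 to 13.1 FPKM. Class II genes also mark B and dendritic cells. The 15 dendritic cell markers, which include H2-Aa, summed to 83.7 to 114.0 FPKM in Th1 and 176.5 to 209.6 FPKM in Th17 libraries, with 4 of them at 0 in all 6, and the B cell sums given above ran the same way. The part of such cells in the class II values was not tested.

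Neighboring genes shared a direction in places. Among genes at least 2-fold different and called in 1 direction, 19 runs of at least 3 neighboring tested genes were higher, holding 72 of 526 such genes with a position, and 7 runs were lower, holding 22 of 469. Many were families of related copies, among them granzymes on chromosome 14, Ly6 genes on chromosome 15, serpins on chromosome 13 and chemokine receptors on chromosome 9. Others held unrelated genes. A run of 6 on chromosome 13 (112987802 to 113225908) held Ccno, Cdc20b, Gpx8, Gzma, Gzmk and Esm1, of which Ccno was at 1.92, 2.33 and 2.65 against 0.271, 0.509 and 0.630 FPKM and Cdc20b at 1.81, 1.55 and 2.94 against 0.114, 0.0485 and 0.385 FPKM. On chromosome 2 (71453276 to 72257474), Metap1d, Itga6, Pdk1 and Rapgef4 were all lower, with the laminin receptor chain Itga6 at 7.87, 7.34 and 5.60 against 26.1, 26.6 and 16.5 FPKM. The call of Ccr2, a gene of the run on chromosome 9, at 94.2, 87.5 and 115.4 against 20.0, 17.5 and 59.8 FPKM, was lost without Th17 replicate 1 or 2 (limma adjusted p = 0.058 and 0.0575, against 0.0142 with all libraries).

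Guanylate-binding proteins, interferon-induced GTPases that attack pathogens inside cells, formed 2 of the higher runs, on chromosomes 3 and 5. In the run on chromosome 3 (142493978 to 142638008), Gbp5 was at 73.2, 24.1 and 56.0 against 8.24, 6.76 and 12.6 FPKM, Gbp7 at 81.1, 54.1 and 82.1 against 23.1, 22.1 and 37.5 FPKM, and Gbp3 at 97.6, 43.9 and 98.0 against 12.8, 11.6 and 26.2 FPKM. Gbp2 had the highest level of the 4, at 1173, 233.6 and 944.7 against 66.3, 57.8 and 110.6 FPKM. Th1 replicate 2 was the lowest Th1 library in all 4 genes, and no groups overlapped. The 250 bases before the start of each of these genes are shown because all 4 windows hold the letters GAAANNGAA, the core of the interferon response element on the reverse strand. The capitals mark the match. The sequences are from RefSeq (GRCm38.p6), run 5′ to 3′ on the plus strand, which is the strand of the genes, and lie at chr3:142496684-142496933 (Gbp5), chr3:142530086-142530335 (Gbp7), chr3:142559794-142560043 (Gbp3) and chr3:142620413-142620662 (Gbp2).
Gbp5: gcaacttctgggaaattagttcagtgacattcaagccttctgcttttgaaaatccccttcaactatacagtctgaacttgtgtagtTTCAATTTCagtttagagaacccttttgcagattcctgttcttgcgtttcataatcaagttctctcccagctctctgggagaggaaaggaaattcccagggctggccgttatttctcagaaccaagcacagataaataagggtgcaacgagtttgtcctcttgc
Gbp7: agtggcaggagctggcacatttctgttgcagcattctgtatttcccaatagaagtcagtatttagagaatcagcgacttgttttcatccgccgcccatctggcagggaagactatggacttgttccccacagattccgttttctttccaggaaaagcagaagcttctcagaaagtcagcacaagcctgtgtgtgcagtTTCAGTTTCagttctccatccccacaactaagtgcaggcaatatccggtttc
Gbp3: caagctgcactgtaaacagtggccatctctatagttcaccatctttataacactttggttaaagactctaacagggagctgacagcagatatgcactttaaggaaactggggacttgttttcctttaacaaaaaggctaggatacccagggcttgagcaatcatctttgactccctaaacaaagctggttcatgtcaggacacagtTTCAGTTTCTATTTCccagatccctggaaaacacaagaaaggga
Gbp2: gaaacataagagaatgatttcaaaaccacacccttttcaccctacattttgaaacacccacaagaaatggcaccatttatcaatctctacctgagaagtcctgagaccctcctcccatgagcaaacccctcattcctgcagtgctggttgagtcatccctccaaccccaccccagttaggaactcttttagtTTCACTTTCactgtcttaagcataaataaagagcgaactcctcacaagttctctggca

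The match begins 58 bases before the start in Gbp2, 52 in Gbp7 and 164 in Gbp5. The window of Gbp3 holds 2 overlapping matches, which begin 44 and 38 bases before the start. Of all 8365 tested genes with a window, 6.43% held these letters on either strand, against 18 of 114 genes at least 4-fold higher in Th1 (15.8%) and 4 of 72 at least 4-fold lower (5.56%). The AP-1 letters TGANTCA, searched the same way, were in 4.02% of all windows, in 10.5% of the 4-fold higher and 4.17% of the 4-fold lower genes. At 2-fold the shares of 402 higher and 363 lower windows were 12.9% and 7.99% for the interferon letters and 11.9% and 3.31% for the AP-1 letters. The RUNX letters TGTGGTT were in 3.31% of all windows and in 9.65% and 8.33% of the 4-fold higher and lower windows (11 of 114 and 6 of 72). At 2-fold the shares were 5.22% and 3.86%, the latter near that of all windows. Also searched were gamma-activated, T-box, TCF, SMAD, E-box, ROR and aryl hydrocarbon letters. Gamma-activated letters TTCNNNGAA were in 5.97% of all, 8.77% of 4-fold higher and 0.0% of 4-fold lower windows. At 2-fold their shares were 7.71% and 4.68%. T-box letters AGGTGTGA were in 0.777% of all, 3.48% of 2-fold higher and 0.826% of 2-fold lower windows. For the TCF letters CTTTGAT the same sets had 2.25%, 2.24% and 1.65%. These are counts of letters and not of bound sites.

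Windows of 2 genes that are no copies of each other carry the AP-1 letters and are shown for that reason, with the match in capitals. They are P2rx7, described above, at chr5:122643677-122643926 on the plus strand, and Ffar2, listed at 0 in Th17, at chr7:30823776-30824025 on the minus strand (RefSeq, GRCm38.p6, 5′ to 3′ on the strand of the gene). The match begins 249 bases before the start in P2rx7 and 52 bases before it in Ffar2.
P2rx7: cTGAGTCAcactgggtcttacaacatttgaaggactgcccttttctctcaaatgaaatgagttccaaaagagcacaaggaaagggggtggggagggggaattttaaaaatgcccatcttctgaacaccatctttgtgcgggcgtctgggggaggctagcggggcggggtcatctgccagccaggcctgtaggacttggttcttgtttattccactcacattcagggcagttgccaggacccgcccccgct
Ffar2: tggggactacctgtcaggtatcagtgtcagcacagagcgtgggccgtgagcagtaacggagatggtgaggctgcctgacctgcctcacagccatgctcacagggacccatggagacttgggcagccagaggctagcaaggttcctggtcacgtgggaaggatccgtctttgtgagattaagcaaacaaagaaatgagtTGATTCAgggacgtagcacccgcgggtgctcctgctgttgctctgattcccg

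Base composition also differed between these sets of windows. The median window of all tested genes held 60.0% G and C and 16 CG dinucleotides. The 4-fold higher genes held 52.8% and 6, and the 4-fold lower genes 64.0% and 17. The aryl hydrocarbon core GCGTG was in 47.2% of all windows, 23.7% of the 4-fold higher and 36.1% of the 4-fold lower genes. This core was thus less frequent in both 4-fold sets than in all windows. At 2-fold the shares were 33.1% of the higher and 45.5% of the lower windows, the latter near that of all windows. The E-box letters CACCTG were in 14.2% of all windows, 19.3% of the 4-fold higher and 11.1% of the 4-fold lower genes. At 2-fold the order was reversed, with 15.7% of the higher and 17.4% of the lower windows. The part of base composition in the motif shares was not tested.

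Much of the expression was shared. Of the 12 most abundant genes of each group, 9 were in both sets, among them Eef1a1, an elongation factor of translation, at 5347, 5077 and 5523 against 5367, 5398 and 5403 FPKM. Gzma and Gzmb, the granzymes A and B, and Actg1, an actin, were in the Th1 set alone. Gzmb was at 2413, 4568 and 3725 against 854.0, 929.0 and 2665 FPKM, with overlapping groups (limma adjusted p = 0.0224), and its call was lost without Th1 replicate 3 or without Th17 replicate 1 or 2 (limma adjusted p = 0.0668, 0.0861 and 0.0837). The actin-buffering Tmsb4x, with Actb and Actg1, took 2.88% ± 0.1 of the summed FPKM in Th1 against 2.11% ± 0.175 in Th17 libraries, and ribosomal proteins took 11.4% ± 0.372 against 12.4% ± 0.675 (SD, n = 3, exact permutation p = 0.1 for each). Mitochondrially encoded genes took 5.47% ± 0.293 and 6.18% ± 0.929 (SD, n = 3, exact permutation p = 0.3). For 3119 genes (29.6%) the 95% confidence interval of the difference lay within 0.5 log2 units of 0, and 195 of these were nevertheless called.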

How the data were processed

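RNA sequencing of 9 mouse T cell libraries in 3 groups of 3 was used, of which the 3 Th1 and 3 Th17 libraries were compared. The authors deposited 1 table of FPKM values per gene symbol. Per the submitters' processing notes, mm10, HISAT2 and DESeq2 were used, with no version or role stated. Read counts per library are not given either, so the depth behind a value is unknown, and FPKM is already divided by library size and transcript length. The library sums were 382581 to 405985 FPKM, with 13525 to 14063 genes above 0. Groups came from the sample titles.

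Genes at 1 FPKM or more in at least 3 of 9 libraries were tested on log2(FPKM + 1) with limma 3.58.1 in R 4.3.3 (trended moderated test, all 9 libraries in 3 groups, two-sided, Benjamini-Hochberg 0.05). Differences on this scale understate the change of low genes. Tables and figures used Python 3.11.15, pandas 2.3.3, scipy 1.17.1 and matplotlib 3.10.9. Simulated data with 200 changed genes served to test the model. Positions are from GENCODE for GRCm38 and promoters from RefSeq (GRCm38.p6). Of 22017 symbols, 21933 had 1 position and 15 were dates, which name no gene.

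The comparison, 65 gene lists and 25 symbol families were chosen with earlier results of these data known. Genes named include the 20 largest per direction outside the T helper lists. These had to be called, with no overlap between groups and a mean of at least 5 FPKM in the higher group. Also named were at most 5 called members each way in each list or family, and genes listed at 0 in 1 group. The 12 most abundant per group, members of chromosome runs and genes that check the labels complete the rule. Eno1, Ldha, Gapdh, Mvd, Il23r, Maf, Lyz2, Id2, H2-T22, H2-Oa, Cd74, H2-DMb2, Nlrp1b and the pathway steps in the metabolic plot fall outside this and were chosen after their values were seen, as were the promoters shown. Alternatives were other pseudocounts, filters, scalings, weights, a 2-group fit, robust moderation, a replicate block and fits without single libraries. Some genes that the rule names, and 1 family, are not reported here.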

Additional observations from a re-analysis of the deposited data

How the results depend on the processing

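The larger number of lower than higher calls depended on scaling. Lower calls numbered 1759 with median-ratio rescaling against 3048 as deposited. Equal sums gave 1330 higher and 3644 lower, and quantile normalization 1774 and 2113. Lower calls numbered 1916 without replicate 3 of every group, and array weights gave 2234 higher and 4882 lower. Lower genes past 2-fold numbered 720 and 175 with pseudocounts of 0.1 and 5, and 311 with a filter of 5 FPKM, and higher genes past 2-fold numbered 280 with a pseudocount of 5. Leaving out 1 library gave 1057 to 1662 higher and 1938 to 3738 lower genes, with 1982 and 1938 lower without Th17 replicate 1 and 2, and 457 to 610 and 381 to 625 past 2-fold. The share difference of the most abundant genes was 1.91 percentage points without mitochondrially encoded genes. Same-numbered libraries correlated at 0.333, -0.177 and -0.00482 in their deviations from group means. With 3 libraries per group, these values cannot show whether the numbers pair the samples. The fit with the replicate block gave 1482 higher and 2970 lower genes (1667 lower with median-ratio rescaling as well). Of its 4452 calls, 4223 were among the 4526 reported. Of 705 called genes named by the rule, 602 kept their call without any 1 library and 574 of these in every other setting, and 0 reversed. Read depth, which is unknown, limits what a listed 0 or a low value can show.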
